A study of Mus musculus with 71 samples.

Results

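The genes described here encode 10 proteins that astrocytes release or place in the matrix around synapses: Sparc, Sparcl1, Clu, Cst3, Gpc4, Gpc6, Hapln1, Bcan, Ncan and Chrdl1. They were chosen by name for this function, with earlier results of these data known. Each was matched to its Ensembl identifier, and they make up 10 of the 57010 genes in the count table. All 10 were among the 30141 genes with at least 10 reads in total, so no gene of the group was lost to a filter. The measurements come from hippocampi of male C57BL/6J wild-type mice that were fed from a young age with normal chow (NC) or with a high-fat and sugar diet (HFS). Food was available ad libitum (NC ad lib, HFS ad lib), or, in the last weeks of the diet, only in a window around the dark phase (HFS TRF, time-restricted feeding). Messenger RNA was purified by pS6-TRAP, in which an antibody to phosphorylated ribosomal protein S6 pulls down ribosomes with the RNA they carry, and was then sequenced. In the first experiment, 36 mice were taken from the home cage at zt3, that is 3 h after lights on (HC zt3), or 1 h after training in the object recognition memory task (ORM+1 h). In the second, 35 mice were taken from the home cage at zt15, in the dark (HC zt15), or 12 h after the same training (ORM+12 h). Each of the 12 groups of diet and condition held 6 mice, except HFS TRF HC zt15 with 5. The antibody does not select a cell type, so each library mixes the pS6-bearing ribosomes of all hippocampal cells, and a lower share of astrocytes and less RNA per astrocyte cannot be told apart.

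Astrocytes shape synapses through proteins they secrete. Hevin, the product of Sparcl1, promotes the formation of excitatory synapses by bridging neurexin and neuroligin, and its relative SPARC counters this activity. The glypicans 4 and 6 raise the number of synaptic AMPA receptors, and chordin-like 1 favours the entry of calcium-impermeable AMPA receptors as synapses mature. Brevican, neurocan and the link protein HAPLN1 are parts of the hyaluronan matrix, in which lecticans are tied to hyaluronan by link proteins. Clusterin is a chaperone carried on brain lipoproteins, and cystatin C inhibits cysteine cathepsins outside the cell.

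Promoter sequence from RefSeq (GRCm38.p6, 250 bases up to the base before the annotated start) was found for 6 of the 10 genes, namely Cst3, Bcan, Ncan, Sparc, Hapln1 and Gpc4. The study asks about thyroid hormone signalling, and the core motif bound by thyroid hormone and other nuclear receptors is AGGTCA. A search of both strands found it in 2 of the 6 promoters, against 14.024% of all 32851 promoters in the table. Those 2 promoters are shown because they hold the motif, and because Cst3 rose after training whereas Gpc4 had the log2 fold change nearest to 0. The motif, or its reverse complement, is in capitals. In Cst3 (chr2:148875513-148875762, minus strand) it begins at position -114 from the start and reads TGACCT, and in Gpc4 (chrX:52164924-52165173, minus strand) it begins at position -171.
Cst3: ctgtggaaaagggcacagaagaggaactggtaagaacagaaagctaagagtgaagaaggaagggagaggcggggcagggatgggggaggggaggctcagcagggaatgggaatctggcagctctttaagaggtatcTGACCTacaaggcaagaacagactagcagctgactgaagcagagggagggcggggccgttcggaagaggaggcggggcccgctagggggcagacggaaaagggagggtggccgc
Gpc4: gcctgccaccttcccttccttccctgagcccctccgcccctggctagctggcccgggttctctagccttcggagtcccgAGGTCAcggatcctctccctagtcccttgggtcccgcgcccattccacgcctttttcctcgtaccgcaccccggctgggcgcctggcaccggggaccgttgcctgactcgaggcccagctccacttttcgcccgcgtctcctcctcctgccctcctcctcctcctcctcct
The other 3 motifs searched on both strands were CACGTG (an E-box, in 6.021% of all promoters), TGACGTCA (a CRE, in 1.546%) and TGANTCA (an AP-1 site, in 6.749%), and none of the 6 promoters held any of them. No motif of the 4 contains the letters of another. A match of letters is a description of the sequence only.

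The libraries held 34698914 to 62758570 counts each. Levels are given as CPM, counts scaled to library size after TMM normalization, and levels of different genes are compared only per kb of exon sequence. On that scale Cst3 was the most abundant member, with a median of 261 CPM per kb over the 71 mice, followed by Sparcl1 at 124 and Clu at 103. Sparc, Ncan and Bcan came next, at 22.4, 14.1 and 13.6 CPM per kb, then Gpc4 at 4.38 and Hapln1 at 0.983. Gpc6 and Chrdl1 were lowest, at 0.225 and 0.221 CPM per kb, and rested on 40 to 225 and 24 to 166 reads per mouse. The ranges over mice overlapped between each pair of neighbours in this order, except between Gpc4 and Hapln1 and between Hapln1 and Gpc6, as the plot of levels per length shows.

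**Figure D1:**
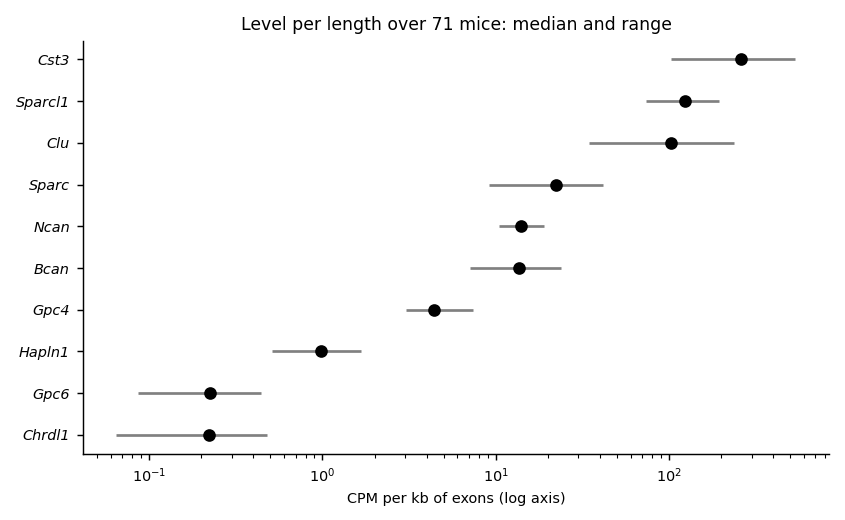
Level of each gene per kb of exon sequence on a log axis. Points are medians and lines run from the lowest to the highest of 71 mice; Cst3 is highest (median 261 CPM per kb) and Gpc6 and Chrdl1 are lowest (0.225 and 0.221).

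The label of the group was checked against 10 astrocyte markers (Aqp4, Gfap, Aldh1l1, Slc1a3, Slc1a2, Gja1, Gjb6, Sox9, S100b and Fgfr3), none of which is a member. Every astrocyte marker was detected in every mouse. Neuronal RNA was present as well: every neuron marker was detected in every mouse, with Snap25 at a median of 4145 CPM. Within groups, that is after the mean of each group was subtracted, the correlation of a member with the astrocyte marker score (the mean z score of log2 CPM of the 10 markers) was highest for Bcan (Pearson r = 0.90 over 71 mice), Cst3 (0.86) and Sparcl1 (0.83). It was 0.48 for Ncan and 0.11 for Gpc4. Gpc4 was the only member whose highest correlation among 8 marker lists was with another list, that of endothelial cells (r = 0.46). The endothelial markers had few reads, with medians of 0.437 CPM (Pecam1) to 1.59 CPM (Kdr), which limits that value. Clu was also correlated with the choroid plexus score (r = 0.53), and Clu and Sparc were inversely correlated with the neuron score (r = -0.66 and -0.65). The points share libraries and their depth, and these values are descriptive.

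**Figure D2:**
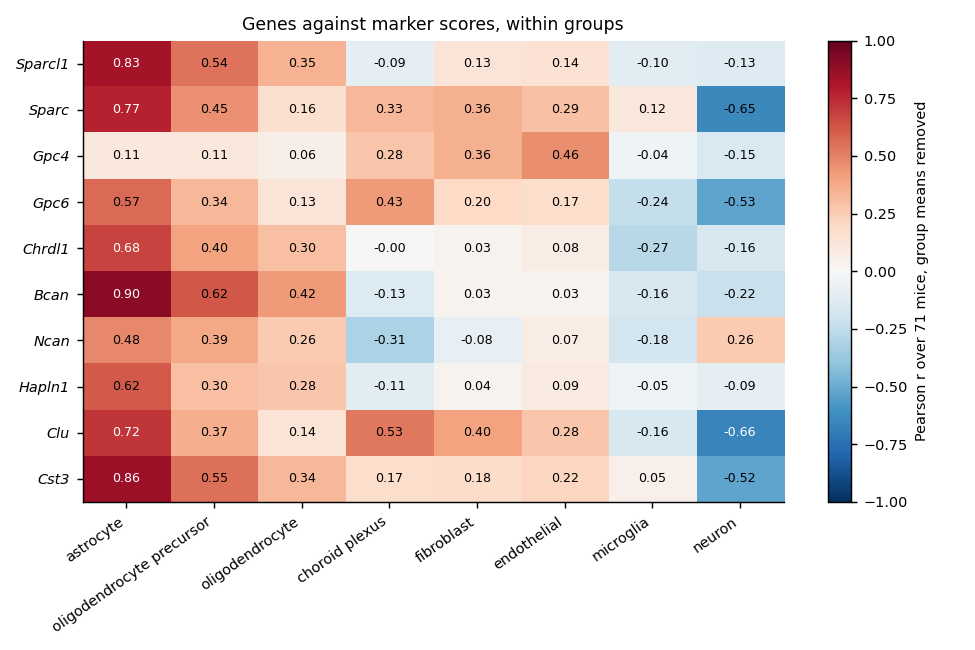
Pearson r between each gene (rows) and each marker score (columns) over 71 mice after group means were removed. Red is positive and blue is negative. The astrocyte column is lowest for Gpc4 (0.11) and Ncan (0.48) and highest for Bcan (0.90).

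Some libraries stood apart. In the HC zt3 group of HFS ad lib mice, the mice numbered 5 and 6 had astrocyte marker scores of 0.83 and 0.63, whereas the other 4 lay between -1.81 and -1.60. In HFS TRF HC zt3, mice 5 and 6 were at 0.01 and -0.06 and the other 4 between -1.99 and -1.26. In NC ad lib HC zt3 all 6 mice lay between -1.58 and -0.71. Bcan was high in the same libraries, as the plot of levels by mouse shows. It was at 140.2 and 116 CPM in HFS ad lib HC zt3 mice 5 and 6, and at 65.4 to 70.1 CPM in mice 1 to 4. Not all members were separated in this way: Ncan ranged from 113 to 138 CPM in HFS ad lib HC zt3, and from 108 to 137 CPM in NC ad lib HC zt3. In NC ad lib HC zt15, mouse 5 was low instead, with an astrocyte score of -1.13 against 0.13 to 1.27 in the other 5. In HFS ad lib HC zt15, mouse 2 had a microglia marker score of 5.79, against -0.34 to 0.10 in the other 5. The main counts are given with all mice and with the mice numbered 5 and 6 left out of every group, an alternative chosen after the values were seen. What set these libraries apart was not tested.

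**Figure D3:**
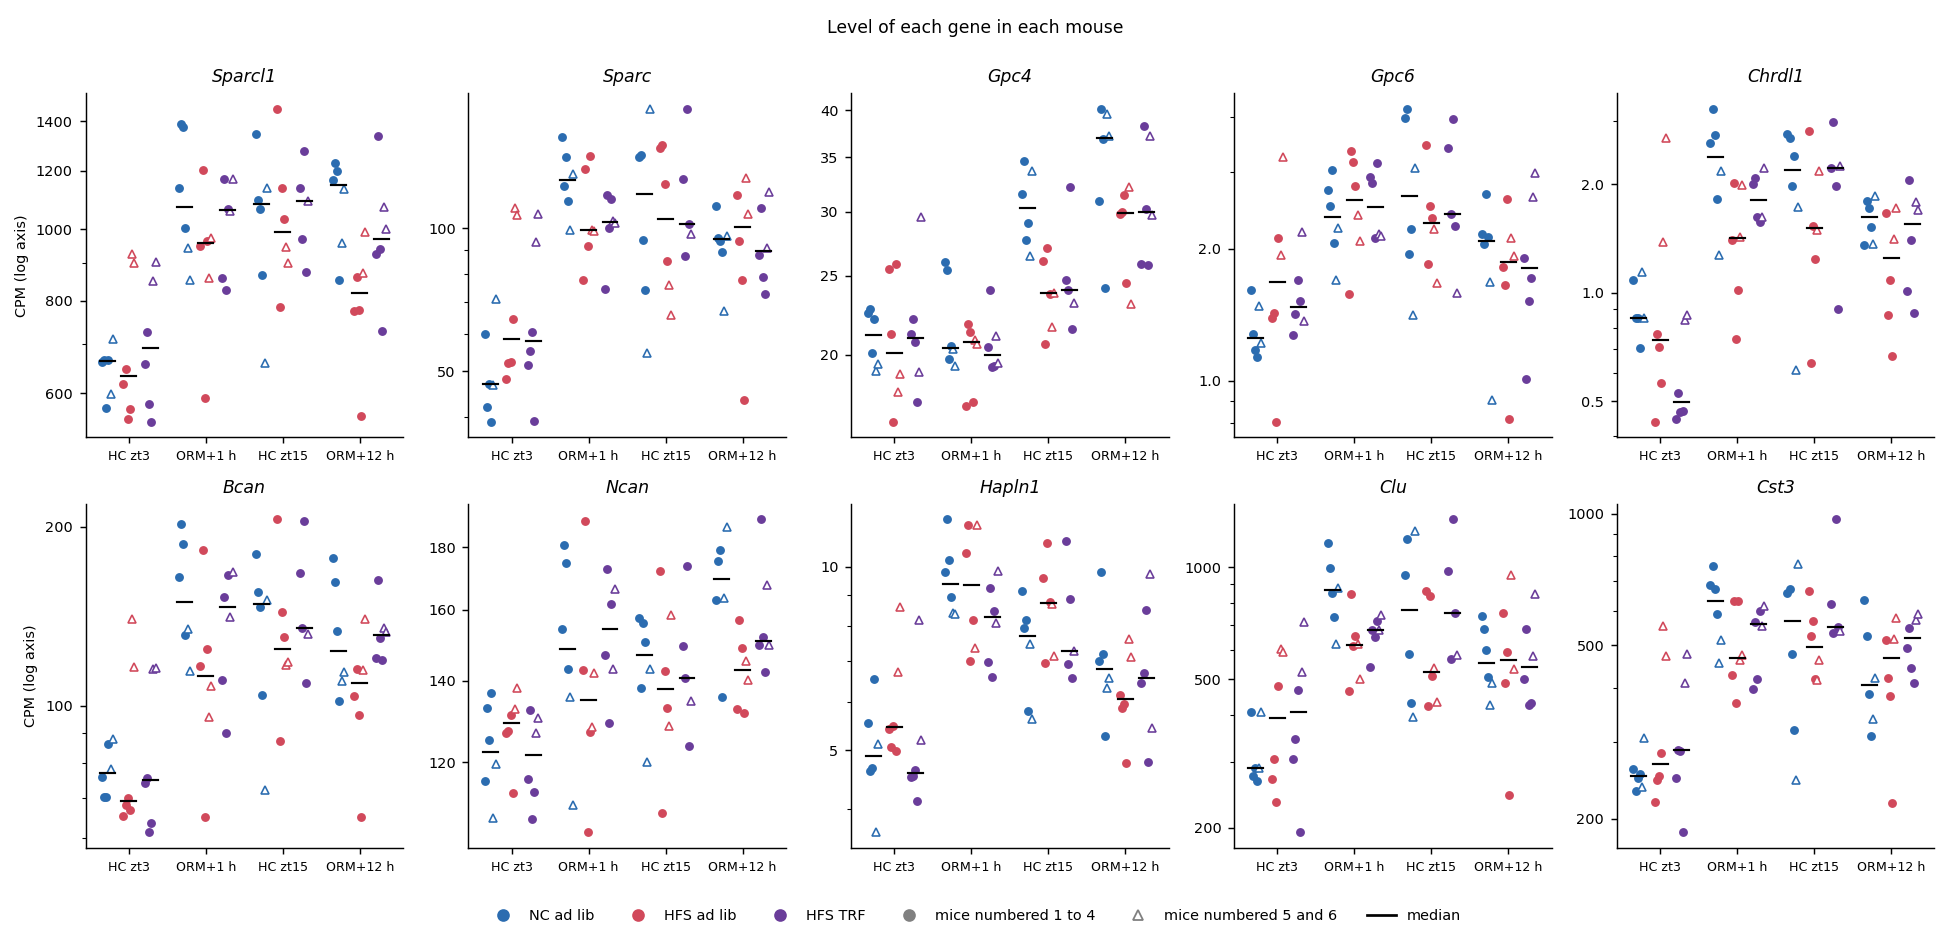
CPM of each gene in each mouse on log axes, by condition (x axis) and diet (colour). Circles are mice numbered 1 to 4, open triangles are mice 5 and 6, and black lines are group medians; the open triangles of both HFS diets at HC zt3 lie above the circles for Bcan, with 140.2 and 116 CPM in HFS ad lib.

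The comparison of ORM+1 h with HC zt3 sets trained mice against mice left in the home cage. Training includes handling and exploring an arena with objects, so these and learning cannot be told apart here. In NC ad lib mice, 8 of the 10 genes were higher 1 h after training, against 4.03% of all 30141 genes that were called higher, and none was lower. In those same 8 genes the lowest trained mouse exceeded the highest home cage mouse, which held for 3.19% of all genes. Their fold changes ran from 1.73 for Sparcl1 to 2.70 for Clu. The median log2 fold change of the 10 members was 0.97, with a median of 0 over all genes. Differences are log2 fold changes with their SE, and adjusted p-values come from the quasi-likelihood test of edgeR, adjusted by Benjamini-Hochberg over all genes tested.

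The hevin pair of genes rose together. Sparcl1 (ENSMUSG00000029309, chr5:104226288-104262065 in GRCm39) ranged from 574 to 711 CPM in NC ad lib HC zt3 (median 663) and from 853 to 1387 CPM at ORM+1 h (median 1071). The groups did not overlap, and the log2 fold change was 0.79 ± 0.15 (SE, n = 6 and 6, edgeR adjusted p = 0.000255). Sparc (ENSMUSG00000018593, chr11:55285317-55314067) went from 39.1 to 70.9 CPM (median 46.9) up to 99.1 to 156 CPM (median 127), a difference of 1.32 ± 0.24 (edgeR adjusted p = 7.98e-05). Sparc, the antagonist, had the larger point estimate, and the difference between both log2 fold changes was not tested.

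The regulators of AMPA receptors were split. Gpc4 (ENSMUSG00000031119, chrX:51139255-51254262) was at 19.1 to 22.7 CPM in the home cage (median 21.1) and at 19.4 to 26.0 CPM after training (median 20.4). Only 2 of the 6 trained mice lay above all home cage mice, and the log2 fold change was 0.06 ± 0.12 (edgeR adjusted p = 0.892). Gpc6 (ENSMUSG00000058571, chr14:117162727-118216940), its close relative, went from 1.14 to 1.61 CPM (median 1.25) to 1.70 to 3.02 CPM (median 2.37), without overlap. Its log2 fold change was 0.85 ± 0.26 (edgeR adjusted p = 0.0363). The call was lost in 8 of the 12 fits that left out 1 mouse (HC zt3 mouse 2, 3, 4 or 6, or ORM+1 h mouse 1, 2, 3 or 6), with adjusted p-values up to 0.0921. Chrdl1 (ENSMUSG00000031283, chrX:142068670-142177258), a secreted antagonist of bone morphogenetic proteins, was at 0.702 to 1.14 CPM (median 0.851) in the home cage and at 1.28 to 3.24 CPM (median 2.39) after training. It rose by 1.34 ± 0.32 (edgeR adjusted p = 0.00379).

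In the matrix group, Bcan and Hapln1 rose in NC ad lib mice. Bcan (ENSMUSG00000004892, chr3:87894835-87910177) was at 70.2 to 88.0 CPM in the home cage (median 77.1) and at 115 to 202 CPM at ORM+1 h (median 149.8), a log2 fold change of 0.99 ± 0.21 (edgeR adjusted p = 0.000628). Hapln1 (ENSMUSG00000021613, chr13:89686581-89759950) was at 3.66 to 6.54 CPM (median 4.90) and then at 8.36 to 12.0 CPM (median 9.37), a log2 fold change of 0.94 ± 0.17 (edgeR adjusted p = 9.21e-05). For both genes the lowest trained mouse lay above the highest home cage mouse. Ncan (ENSMUSG00000002341, chr8:70538926-70573523) was at 108 to 137 CPM (median 122) in the home cage and at 111 to 181 CPM (median 149) after training, with 4 of 6 trained mice above all controls. Its log2 fold change of 0.28 ± 0.10 did not pass the test (edgeR adjusted p = 0.076). The 3′ end of Ncan overlaps Hapln4 on the opposite strand, a gene with 874871 reads over all mice, and the strand setting used for counting is not given in the sources used here, so reads of that overlap may be shared.

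Clu and Cst3, the abundant chaperone and protease inhibitor, were also separated between the groups. Clu (ENSMUSG00000022037, chr14:66190200-66218999) was at 267 to 409.6 CPM in NC ad lib HC zt3 (median 289.5) and at 622 to 1159.9 CPM at ORM+1 h (median 866). It rose by 1.43 ± 0.26 (edgeR adjusted p = 0.000123). Cst3 (ENSMUSG00000027447, chr2:148713635-148717887) went from 231 to 306 CPM (median 251) to 456 to 758 CPM (median 631), a log2 fold change of 1.26 ± 0.22 (edgeR adjusted p = 5.26e-05). The astrocyte markers moved with the members: 10 of 10 were higher in NC ad lib, with a median log2 fold change of 1.40, and their summed level went from 992 to 1279 CPM to 2150.3 to 3545 CPM. Among the other marker lists, 1 of 8 neuron markers was lower and none was called among those of oligodendrocytes and their precursors, microglia, endothelial cells and fibroblasts. The choroid plexus markers, with a summed level of 219 to 3054 CPM at HC zt3 and 97.5 to 12278 CPM at ORM+1 h, had 0 of 8 called, and every member called stayed called with their score as a covariate. With the astrocyte score as a covariate, which itself separates these groups, 0 of 10 members were called in NC ad lib.

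Relative to the mean log2 CPM of the 10 astrocyte markers in the same mouse, Clu changed by -0.05, Sparc by -0.14, Chrdl1 by -0.22 and Cst3 by -0.24 between NC ad lib HC zt3 and ORM+1 h. Bcan, Hapln1, Gpc6 and Sparcl1 changed by -0.51, -0.54, -0.66 and -0.71. Ncan and Gpc4 fell furthest behind the markers, at -1.21 and -1.43. For the same comparison in HFS TRF, Sparc, Clu and Cst3 changed by -0.53, -0.44 and -0.42, and in HFS ad lib by -0.21, -0.18 and -0.20. These differences are descriptive.

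In HFS ad lib mice the same comparison called 1 member, Hapln1, against 0.74% of all genes called higher. Hapln1 was at 4.99 to 8.60 CPM in HC zt3 (median 5.45) and at 7.01 to 11.7 CPM at ORM+1 h (median 9.35), a log2 fold change of 0.64 ± 0.17 (edgeR adjusted p = 0.0321). Of the other 9 genes, 8 had positive log2 fold changes between 0.12 (Ncan) and 0.58 (Clu), and Gpc4 was at -0.08. In no member did all trained mice lie above all controls, a pattern found for 0.819% of all genes. The ranges overlapped in part through high home cage mice: Cst3 was at 218 to 553 CPM (median 267) in HC zt3 and at 369 to 632 CPM (median 468) at ORM+1 h.

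That count changed with the mice in the fit. With the mice numbered 5 and 6 left out of every group, which leaves 4 mice against 4, 6 members were called in HFS ad lib (Bcan, Sparc, Hapln1, Clu, Cst3 and Sparcl1), against 1.84% of all genes called higher in that fit, and their log2 fold changes lay between 0.64 (Sparcl1) and 1.05 (Cst3 and Sparc). Cst3 was at 1.05 ± 0.22 (edgeR adjusted p = 0.00218) and Bcan at 0.86 ± 0.23 (edgeR adjusted p = 0.0254), against 0.57 ± 0.22 and 0.39 ± 0.20 with all mice. Chrdl1 stood at 1.06 ± 0.34 in that fit and did not pass (edgeR adjusted p = 0.113). Left out singly, mouse 1, 2, 3 or 4 of HC zt3 or mouse 1, 2 or 6 of ORM+1 h brought the count to 0, and mouse 5 of HC zt3 brought it to 2. The mice were dropped by number in all groups, but the numbers were picked because 4 home cage mice with them were high, and the larger differences are to be read with that choice in mind.

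**Figure D4:**
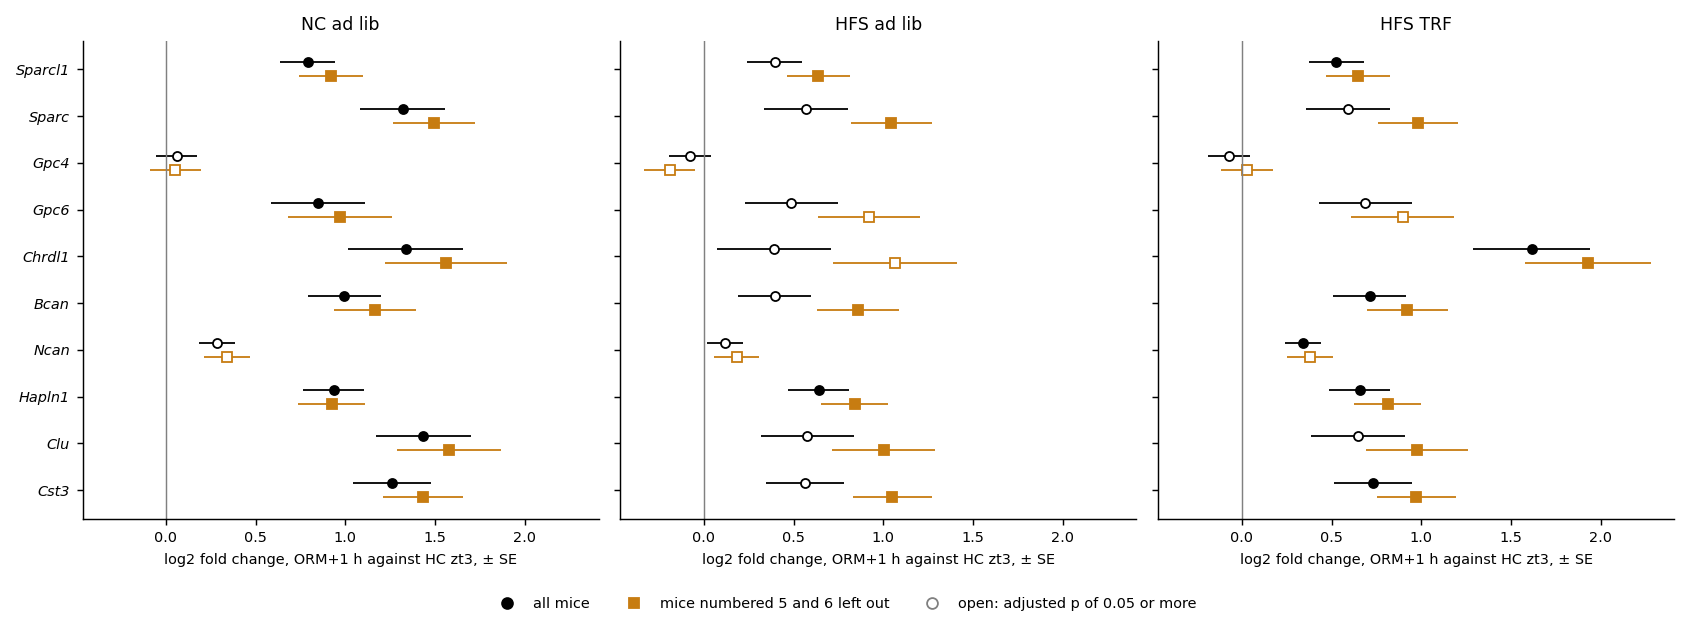
Log2 fold change of ORM+1 h against HC zt3 with its SE for each gene and diet, with all mice (black circles) and with the mice numbered 5 and 6 left out of every group (orange squares). Filled symbols have an adjusted p under 0.05: in HFS ad lib, 1 gene is filled with all mice and 6 without those mice.

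In HFS TRF mice, 6 members were higher at ORM+1 h (Chrdl1, Cst3, Bcan, Hapln1, Sparcl1 and Ncan), against 2.24% of all genes. Chrdl1 was at 0.445 to 0.866 CPM in HC zt3 (median 0.498) and at 1.58 to 2.22 CPM after training (median 1.81). It was the single member without overlap in this diet, a pattern found for 2.14% of all genes, and its log2 fold change of 1.62 ± 0.33 (edgeR adjusted p = 0.00107) was a fold change of 3.07. Cst3 rose by 0.73 ± 0.22 (edgeR adjusted p = 0.0468), Bcan by 0.71 ± 0.20 (0.0376), Hapln1 by 0.66 ± 0.17 (0.0150), Sparcl1 by 0.53 ± 0.15 (0.0393) and Ncan by 0.34 ± 0.10 (0.0415). Sparc, Clu and Gpc6 had log2 fold changes of 0.59, 0.65 and 0.69 that did not pass, and Gpc4 was at -0.07.

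Most of these calls lay close to the threshold. Leaving out mouse 4 of HFS TRF HC zt3 left 1 call of 6, leaving out mouse 1 or 3 of that group or mouse 2, 4 or 6 of ORM+1 h left 2, and leaving out mouse 2 of HC zt3 or mouse 5 of ORM+1 h left 3. Chrdl1 kept its call in all 12 of these fits. Without the mice numbered 5 and 6, 7 members were called in HFS TRF (Bcan, Sparc, Hapln1, Clu, Cst3, Sparcl1 and Chrdl1), beside 8 with NC and 6 with HFS ad lib, and the shares of all genes called higher in that fit were 2.38%, 3.07% and 1.84%. The astrocyte markers gave 8 of 10 called higher in HFS TRF, against 1 of 10 for HFS ad lib, with median log2 fold changes of 1.07 and 0.56.

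Averaged over the 3 diets with equal weight, 9 of the 10 members were higher at ORM+1 h, against 8.04% of all genes, and the 9 kept their call in each of the 36 fits without 1 mouse. Among the members, Hapln1 had the smallest adjusted p (0.74 ± 0.10, edgeR adjusted p = 1.79e-08), and Chrdl1 the largest change (1.11 ± 0.19, edgeR adjusted p = 4.36e-06). Ncan, which passed in HFS TRF alone, rose by 0.25 ± 0.06 on average (edgeR adjusted p = 0.000994). Gpc4 was at -0.03 ± 0.07 (edgeR adjusted p = 0.929).

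**Figure D5:**
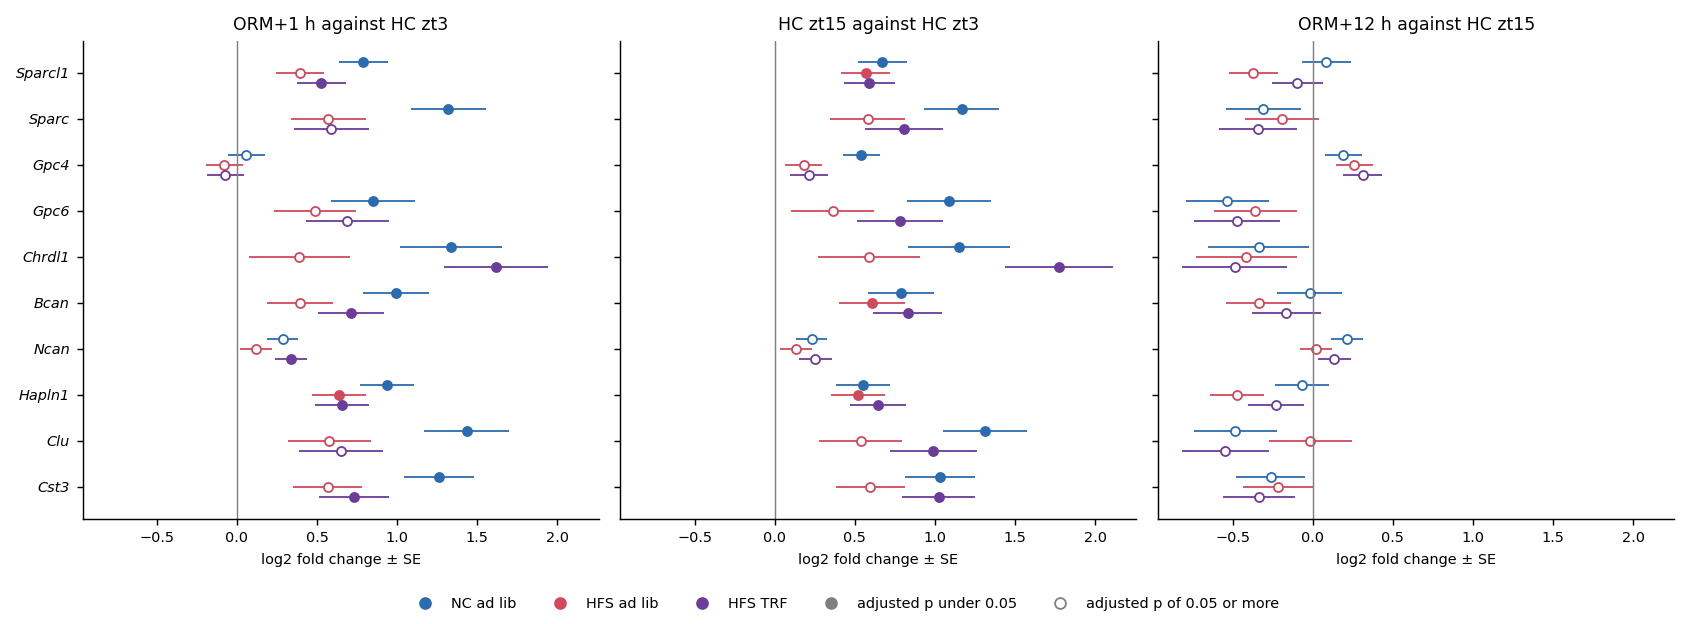
Log2 fold change with its SE for each gene (rows) and diet (colour) in 3 comparisons. Filled points have an adjusted p under 0.05: 8 members with NC, 1 with HFS ad lib and 6 with HFS TRF at ORM+1 h against HC zt3, 9, 3 and 8 in the same order at HC zt15 against HC zt3, and 0 in each diet at ORM+12 h against HC zt15.

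A difference in response between diets is an interaction term of the same model. For HFS ad lib against NC ad lib at 1 h, all 10 members had a negative interaction, with a median of -0.50, but no member passed and the smallest adjusted p was 0.717 (edgeR; 0.0% of all genes passed). The largest was for Chrdl1, at -0.95 ± 0.45 (95% interval -1.82 to -0.07), and Clu stood at -0.86 ± 0.37 (-1.58 to -0.14). At an unadjusted p under 0.05 there were 5 members, namely Bcan, Chrdl1, Clu, Cst3 and Sparc, against 6.25% of all genes. Without the mice numbered 5 and 6, all 10 interactions were still negative and their median was -0.29. For HFS TRF against HFS ad lib, the interactions at 1 h had a median of 0.15 with all mice and -0.01 without mice 5 and 6, and Chrdl1 was at 1.23 ± 0.45 (95% interval 0.34 to 2.11, edgeR adjusted p = 0.750, with 0.0% of all genes called). The smaller number of calls in HFS ad lib is therefore not shown to be a difference between diets.

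The direct contrasts between diets called no member in any of the 4 conditions. In the comparison of HFS ad lib with NC ad lib, 0.0% of all genes were called at HC zt3, 0.0% at ORM+1 h, 0.063% at HC zt15 and 2.27% at ORM+12 h. The lowest member p-values adjusted by edgeR in these were 0.588, 0.497, 0.322 and 0.103. The count of members with an unadjusted p under 0.05 was 1 (Sparc, higher in HFS), 2 (Bcan and Chrdl1, lower), 1 (Gpc4, lower) and 3 (Gpc4, Ncan and Sparcl1, lower), where 8.38%, 9.56%, 12.5% and 21.2% of all genes had such a p, and the DESeq2 Wald test called none. These counts of 10 lie near the shares of all genes. Without the mice numbered 5 and 6, Sparc at HC zt3 was at 0.19 ± 0.22 in place of 0.50 ± 0.23. For HFS TRF against HFS ad lib the shares of all genes were 0.0% at HC zt3, ORM+1 h and HC zt15 and 0.00664% at ORM+12 h, with member adjusted p-values of 0.370 or more (edgeR). At an unadjusted p under 0.05 there was 1 member at HC zt3, Chrdl1 (-0.86 ± 0.33), and 1 at ORM+12 h, Sparcl1 (0.31 ± 0.15), against 5.89% and 12.3% of all genes. Chrdl1 at HC zt3 was at -0.37 ± 0.35 without the mice numbered 5 and 6, and no contrast between diets called a member in that fit.

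Setting HC zt15 against HC zt3 addresses variation between night and day in mice left in the home cage. Here the hour and the experiment cannot be told apart, since the zt3 mice are from the first experiment and the zt15 mice from the second. It also shares its HC zt3 mice with the comparison at ORM+1 h, so that low or high values in those mice enter both, and the values are set side by side without being compared. In NC ad lib mice 9 members were higher at zt15 (all but Ncan), against 5.18% of all genes. In HFS ad lib there were 3 (Sparcl1, Bcan and Hapln1), against 3.88%, and in HFS TRF 8 (all but Gpc4 and Ncan), against 5.95%. Averaged over diets all 10 were higher, against 12.7% of all genes.

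Clu was at 396 to 1252 CPM (median 769) in NC ad lib HC zt15, where 5 of 6 mice lay above all zt3 mice, and differed from HC zt3 by 1.31 ± 0.26 (edgeR adjusted p = 0.000180). Sparc was at 54.8 to 178 CPM (median 118), a difference of 1.17 ± 0.24 (edgeR adjusted p = 0.000196), and Cst3 at 245 to 767 CPM (median 569), a difference of 1.03 ± 0.22 (edgeR adjusted p = 0.000384). The lowest value of each of these genes was that of mouse 5, whose astrocyte score was low. Sparcl1 differed by 0.67 ± 0.15, Gpc6 by 1.09 ± 0.26, Chrdl1 by 1.15 ± 0.32, Bcan by 0.79 ± 0.21 and Hapln1 by 0.55 ± 0.17. Hapln1 lost its call without mouse 5 of HC zt3 (edgeR adjusted p = 0.0726) or mouse 1 of HC zt15, and it was not called without the mice numbered 5 and 6 (0.53 ± 0.19, edgeR adjusted p = 0.0646).

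Gpc4, for which no difference was detected at ORM+1 h, was called at zt15. With NC it was at 26.5 to 34.6 CPM at zt15 (median 30.3), above all 6 mice at zt3, a pattern found for 1.54% of all genes in that diet. The difference was 0.54 ± 0.12 (edgeR adjusted p = 0.000493), and Gpc4 was the only member in NC ad lib that kept its call with the astrocyte score as a covariate. In HFS ad lib it was at 20.6 to 27.1 CPM (median 23.8) against 16.5 to 25.9 CPM (median 20.1), and in HFS TRF at 21.5 to 32.2 CPM (median 24.1) against 17.5 to 29.5 CPM (median 21.0), with differences of 0.18 ± 0.12 and 0.21 ± 0.12 that did not pass. The interaction of HFS ad lib against NC ad lib was -0.36 ± 0.16 for Gpc4 and did not pass (edgeR adjusted p = 0.489, with 0.0% of all genes called), nor did any other member. The median of the 10 interactions was -0.40 with all mice and -0.04 without the mice numbered 5 and 6.

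In HFS TRF, Chrdl1 was at 0.90 to 2.99 CPM at zt15 (median 2.22), and all 5 mice lay above the 6 mice at zt3. Its difference of 1.77 ± 0.34 (edgeR adjusted p = 6.63e-05) was the largest of any member in any diet. Cst3 was the other member without overlap in that diet, at 532 to 971 CPM (median 549), where 3.1% of all genes had the same pattern. Its difference was 1.02 ± 0.23 (edgeR adjusted p = 0.000628). Without mouse 3 of HFS TRF HC zt15, the highest mouse for Cst3, 5 of the 8 members were still called. In HFS ad lib no member was without overlap (1.24% of all genes were).

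The 3 calls in HFS ad lib were Sparcl1 (0.57 ± 0.15, edgeR adjusted p = 0.00767), Hapln1 (0.52 ± 0.17, 0.0332) and Bcan (0.61 ± 0.20, 0.0429). Left out singly, mouse 1 of HC zt15 brought the count to 0 and mouse 3 of HC zt15 or mouse 1, 2, 3 or 4 of HC zt3 to 1, whereas mouse 5 or 6 of HC zt3 brought it to 5 and 6. Without the mice numbered 5 and 6 it was 7 (Bcan, Sparc, Hapln1, Clu, Cst3, Sparcl1 and Chrdl1), beside 8 with NC and 8 with HFS TRF, where 4.02%, 4.02% and 5.75% of all genes were called higher in that fit. The interaction with HFS TRF against HFS ad lib was also called for no member, with 0.0% of all genes called, and was largest for Chrdl1 at 1.18 ± 0.46 (edgeR adjusted p = 0.462). The astrocyte markers gave 10, 4 and 9 of 10 called higher with NC, with HFS ad lib and with HFS TRF.

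The comparison of ORM+12 h with HC zt15 addresses the late response. No member was called in any diet (edgeR), with 0.143% of all genes called higher with NC, 0.0697% with HFS ad lib and 1.57% with HFS TRF. At an unadjusted p under 0.05 there were 2, 3 and 2 members, near the 16.8%, 17.0% and 21.5% of all genes, and the DESeq2 Wald test called none. The direction was mostly negative: 7, 8 and 8 of the 10 log2 fold changes were below 0, with medians of -0.17, -0.28 and -0.28. Clu, for example, was at 427 to 739 CPM (median 552) in NC ad lib ORM+12 h, within the range of its HC zt15 mice, and its difference was -0.48 ± 0.26 (edgeR adjusted p = 0.339). The summed choroid plexus markers had medians of 4974 CPM at HC zt15 and 375.5 CPM at ORM+12 h with NC. They were at 7868 and 405.2 CPM with HFS TRF, and in the reverse order with HFS ad lib, at 727.5 and 5429 CPM. Whether this bears on Clu was not tested. Averaged over the 3 diets, 8 of the 10 members had an unadjusted edgeR p under 0.05, as did 6166 of all 30141 genes. The median log2 fold change of the members was then -0.26, and 2 of the 10 were positive. Without the mice numbered 5 and 6, 6 of 10 astrocyte markers were called lower in that mean, against 1.28% of all genes. In the same fit 1 of 10 members was called lower, and the members' median log2 fold change was -0.37.

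Gpc4 moved the other way in all 3 diets, and averaged over them it was higher by 0.25 ± 0.07 (edgeR adjusted p = 0.0175), the single member called, where 3.58% of all genes were called higher. With NC it was at 24.2 to 40.2 CPM (median 37.0), with HFS ad lib at 23.1 to 32.2 CPM (median 29.9) and with HFS TRF at 25.8 to 38.3 CPM (median 30.0), and 4, 4 and 2 of 6 mice lay above all HC zt15 mice of their diet. The count of 1 became 2 without any one of NC ad lib HC zt15 mouse 3, 4 or 5, NC ad lib ORM+12 h mouse 3 or 4, HFS ad lib HC zt15 mouse 6, HFS ad lib ORM+12 h mouse 3, HFS TRF HC zt15 mouse 5 or HFS TRF ORM+12 h mouse 5 or 6. The call of Gpc4 was lost without the mice numbered 5 and 6 (0.20 ± 0.08, edgeR adjusted p = 0.180), and in that fit Gpc6 was called lower instead (-0.65 ± 0.16, edgeR adjusted p = 0.0213), as were 1.28% of all genes. Ncan was the only other member with positive values in all 3 diets, at 0.21, 0.02 and 0.13. Interactions with diet at 12 h were called for no member. They were called for 0.106% of all genes for HFS ad lib against NC ad lib and for 0.0% for HFS TRF against HFS ad lib.

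Within groups, the members varied together to different degrees. Over the 45 pairs Pearson r had a median of 0.52 and ranged from 0.15 (Gpc6 with Ncan) to 0.93 (Sparcl1 with Bcan). Cst3 with Sparc (0.90), Clu with Sparc (0.88) and Cst3 with Clu (0.86) were also close. Gpc4 had the lowest median over its 9 pairs (0.27) and Bcan the highest (0.69). Among 21495 other genes, those most like the mean z score of the members included Scd2 (r = 0.95), Plxnb1 (0.94), Acsl6 (0.94) and Atp1b2 (0.94). All of these correlations are over 71 mice that share libraries and depth with one another.

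The related genes outside the group were counted in 9 lists, to be read against the 4.03%, 0.74% and 2.24% of all genes called higher at ORM+1 h with NC, with HFS ad lib and with HFS TRF. Among 12 genes of the hyaluronan matrix (Acan, Vcan, tenascins, other link proteins, hyaluronan synthases and receptors), 1 was higher at ORM+1 h with NC and with HFS TRF, and 0 with HFS ad lib. It was Ptprz1, a receptor phosphatase of glial cells that binds tenascins and lecticans, which rose by 1.06 (edgeR adjusted p = 0.000381) and 0.81 (0.0156). The median log2 fold change of the list in NC ad lib was 0.04. Of 16 matrix proteases and inhibitors, 4 were higher in NC ad lib (Timp4, Mmp14, Adamts1 and Timp3), 1 in HFS TRF (Timp4) and 0 in HFS ad lib. Timp4, an inhibitor of metalloproteinases, was at 11.7 to 16.6 CPM in NC ad lib HC zt3 (median 13.8) and at 29.3 to 43.5 CPM at ORM+1 h (median 31.9).

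Of 9 other glypicans and glypican receptors, 1 was higher in NC ad lib, Gpc5 (1.23, edgeR adjusted p = 0.00113), and 0 in the other diets. Gpc5 was at 8.49 to 11.9 CPM in the home cage and at 17.6 to 30.1 CPM after training. Of 8 further members of the SPARC and follistatin-like family, 1 was higher in NC ad lib, Smoc1 (0.80), and 0 in the other diets. Spock1 and Spock2 were lower in the mean over diets, by -0.14 and -0.18. Among 6 thrombospondins and their receptor, 2 were higher in NC ad lib, Thbs4 (1.94) and Thbs1 (1.64), 1 in HFS TRF, Thbs4 (1.14), and 0 in HFS ad lib. Thbs4, like hevin a synaptogenic matrix protein, was at 1.58 to 2.2 CPM in NC ad lib HC zt3 and at 5.14 to 11.6 CPM at ORM+1 h.

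Of 10 hevin partners and AMPA receptor subunits, 1 was lower in NC ad lib, Nlgn1 (-0.27), which encodes neuroligin 1, and 1 was higher in each HFS diet, Nptx2 (0.75 with HFS ad lib, 0.81 with HFS TRF), an activity-regulated pentraxin that gathers AMPA receptors. Of 12 genes for ligands, antagonists and receptors of bone morphogenetic proteins, 3 were higher with NC and with HFS TRF, and 0 with HFS ad lib. They were Bmpr1b (1.49 and 1.27), Bmpr1a (0.50 and 0.40) and Grem1 (0.89 and 1.13), the last a secreted antagonist. Of 10 clusterin receptors and lipoprotein partners, 4 were higher in NC ad lib, among them Lcat (1.82), Apoe (1.64) and Abca1 (0.59). In HFS TRF 1 was, Lcat (1.29), and in HFS ad lib 0. Of the other cystatins and the cathepsins, 9 were tested and 0 were called in any diet, though Cst7 was lower in the mean over diets (-1.37, edgeR adjusted p = 0.0285). In that mean, 1986 of all 30141 genes were called lower. Cst7 had very few reads, with medians of 0.191 CPM in NC ad lib HC zt3 and 0.0564 CPM at ORM+1 h. Without the mice numbered 5 and 6, 0 genes of this list were called lower in the mean.

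The HFS ad lib counts of these lists include the same home cage libraries that stood apart. Timp4 reached 39.3 CPM in HFS ad lib HC zt3 with a median of 11.7, and Gpc5 reached 18.3 CPM with a median of 9.68. Without the mice numbered 5 and 6, the lists gave 7 calls in HFS ad lib at ORM+1 h, all higher: Timp4, Gpc5, Thbs4, Nptx2, Bmpr1b, Apoe and Lcat. Of all genes, 1.84% were called higher in this diet in that fit. All 10 astrocyte markers were called higher in each diet in that fit.

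With all mice, the lists gave fewer calls at HC zt15 against HC zt3 in HFS ad lib than in the other diets. This difference was not tested. Of all 30141 genes, 5.18%, 3.88% and 5.95% were called higher with NC, with HFS ad lib and with HFS TRF. Called lower were 1972, 1970 and 2490 genes in the same order. With NC and with HFS TRF, 4 matrix proteases and inhibitors were higher in each (Timp3, Timp4, Mmp14 and Adamts1), as was Ptprz1 (0.90 and 0.94), Gpc5 (0.91 and 0.84) and Thbs4 (1.49 and 1.83). Thbs4 was also higher in HFS ad lib (1.30), and so were Bmp4 (0.80) and Adamts4 (0.50), while Nlgn1 was lower there (-0.34). These 4 were the only calls of the 9 lists in that diet with all mice. Of the bone morphogenetic protein genes, 3 were higher with NC (Bmp4 at 1.17, Bmpr1b at 0.79 and Bmpr1a at 0.38) and 1 was lower (Grem1 at -0.63), and with HFS TRF 2 were higher (Bmp4 at 1.2 and Bmpr1b at 1.03) and 1 was lower (Chrd at -0.45). Of the clusterin partners, 3 were higher with NC (Apoe, Lcat and Abca1) and 3 with HFS TRF (Apoe, Lcat and Apod). Smoc1 was higher in both diets (0.82 and 0.68), Ptprf passed with NC (0.55), and Thbs1 passed with HFS TRF (1.21), where Fstl1 (-0.27) and Gria2 (-0.33) were lower. The cystatins and cathepsins gave 0 calls in each diet with all mice. Without the mice numbered 5 and 6, Ptprz1, Timp1, Timp4, Gpc5, Smoc1, Thbs4, Bmpr1b, Ctss, Apoe and Lcat were higher in HFS ad lib. The mice kept included HFS ad lib HC zt15 mouse 2, whose microglia score was 5.79, and its part in these calls was not tested. In that fit 4.02% of all genes were called higher in this diet, as were 3 of 6 microglia markers (Csf1r, C1qa and Tmem119). Nlgn1 was lower there, as were 1359 of all 30141 genes, and Bmp4 and Adamts4 were not called. At ORM+12 h against HC zt15, with all mice, the 9 lists gave 1 call in NC ad lib (Fstl4, 0.77), 0 with HFS ad lib and 4 with HFS TRF (Nlgn2 at 0.49, Nptxr at 0.36, Mmp24 at 0.56 and Adamts1 at -0.98). Of all 30141 genes, 0.143%, 0.0697% and 1.57% were called higher there in the same order of diets, and 20, 33 and 268 genes were called lower.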

How the data were processed

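Hippocampal pS6-TRAP libraries of 71 mice were analysed from the gene counts deposited by the authors, which are raw read counts per gene with no normalization. Per the labels and the study's methods, reads were trimmed with Trim Galore 0.6.7 and cutadapt 3.4, aligned with HISAT2 2.2.0 and counted with featureCounts of Subread 2.0.3, and the authors tested with DESeq2. The labels list both GRCm39 and mm9 as builds without saying which step used each. The strand setting of the counting is not given in the sources used here, so reads of genes on opposite strands may be shared (Ncan with Hapln4, 874871 counts; Clu with Scara3, 45865; Hapln1 with a pseudogene, 8211). Each library held 34698914 to 62758570 counts, and genes with few reads are the least precise.

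Groups came from the sample descriptions, and replicates are separate mice. The titles of the HFS TRF samples name both time-restricted feeding and ad libitum, while their descriptions and diet labels give time-restricted feeding alone. The study's methods give a slightly larger number of samples than the 71 analysed here. Of 57010 genes, 56310 were matched to the GRCm39 annotation. Genes with at least 10 counts in total (30141) were fitted in 1 model of 12 groups with edgeR 4.0.16 (R 4.3.3, limma 3.58.1), TMM normalization and the quasi-likelihood test, with Benjamini-Hochberg adjustment over all genes and a threshold of 0.05. Intervals are 1.96 SE to each side. The test was tried on simulated data before use.

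The 10 genes and all lists were chosen with earlier results of these data known. All 10 members were named, and up to 3 genes of each pathway list with the smallest adjusted p at ORM+1 h averaged over diets. Other list genes were named after their values were seen. Some genes that this rule would name are not reported here. The marker lists were those of astrocytes, neurons, oligodendrocytes, their precursors, microglia, endothelial cells, choroid plexus and fibroblasts. The alternatives were DESeq2 1.42.0 (its Wald test, and its size factors within edgeR), other filters on low counts, the replicate number as a block, marker scores as covariates, only the groups compared, and leaving out each mouse. Leaving out the mice numbered 5 and 6 of every group, which left 48 mice, was added after the data were seen. The main fit used no pairing by replicate number. No protein sequences were used here.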

Additional observations from a re-analysis of the deposited data

Results flagged for a closer look

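In 3 of 120 combinations of member and group, 1 mouse lay further from the others than Dixon's 95% limit, which chance alone exceeds in about 1 of 20 such groups. Cst3 was at 971 CPM in HFS TRF HC zt15 mouse 3, with the other 4 mice at 532 to 619.9 CPM. Hapln1 was at 8.17 CPM in HFS TRF HC zt3 mouse 5, with the other 5 mice at 4.12 to 5.20 CPM. Bcan was at 163 CPM in HFS TRF ORM+12 h mouse 2, with the other 5 mice at 119 to 135 CPM. The cause was not tested.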

How the results depend on the processing

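The 55 calls of single members kept their direction and their side of the threshold with DESeq2's size factors, with at least 1 count in total, with filterByExpr (21505 genes), with the choroid plexus score as a covariate and with the DESeq2 Wald test. The replicate block over all groups changed 1 call (Gpc6 at HC zt15 in HFS TRF, 0.76, edgeR adjusted p = 0.0549), and the replicate block within condition gave 1 member for HFS ad lib against NC ad lib at ORM+12 h in place of 0. Same-numbered mice did not all correlate above 0.1 in any pair of groups, a check too coarse to show whether the numbers pair mice. Their median r was highest for HFS TRF against HFS ad lib at ORM+1 h, at 0.14, with 4 of 6 pairs over 0.1. Mice with other numbers had a median of -0.07 there. A batch tied to the number was not tested. With only the groups compared, 0 members were called at ORM+1 h and 1 at HC zt15 in HFS ad lib, and 0 at ORM+12 h averaged over diets, where the DESeq2 Wald test called 2.

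With the astrocyte score as a covariate, 0 members were called at ORM+1 h in each diet and in the mean, 1 at HC zt15 in NC ad lib and 0 in both HFS diets and the mean, 2 at ORM+12 h averaged over diets, and 1 for HFS ad lib against NC ad lib at ORM+12 h. The score differs between the same groups. Log2 fold changes then turned negative for Bcan (-0.115 with NC, -0.147 with HFS TRF and -0.154 in the mean at ORM+1 h, and -0.127 with NC, -0.0119 with HFS ad lib, -0.106 with HFS TRF and -0.0814 in the mean at HC zt15). They also did for Sparcl1 (-0.0590 at ORM+1 h in HFS TRF, -0.0143 in the mean and -0.0486 at HC zt15 in HFS TRF), Cst3 (-0.112 at ORM+1 h in HFS TRF), Sparc (-0.0707 at HC zt15 in HFS TRF) and Ncan (-0.00440 at HC zt15 in the mean).

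Without the mice numbered 5 and 6, chosen after seeing the data, HFS ad lib gave 6 calls at ORM+1 h in place of 1 and 7 at HC zt15 in place of 3. Leaving out 1 mouse gave 7 to 8, 0 to 2 and 1 to 6 calls at ORM+1 h (with NC, with HFS ad lib and with HFS TRF), 8 to 9, 0 to 6 and 5 to 8 at HC zt15 in the same order, and 1 to 2 at ORM+12 h averaged over diets. Gpc6 and Chrdl1 rest on few reads, which limits their precision. The cause of these changes was not tested.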
